A study of Mus musculus with 8 samples.

Results

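Bone marrow CD4 T cells whose receptor was found in several cells of the same pool were described here. A clonotype was the pair of CDR3 nucleotide sequences of the TRA and TRB contigs with the most UMIs (unique molecular identifiers, which count captured molecules) in a cell. A cell was a member when it had at least 1 Cd4 UMI, no Cd8a or Cd8b1 UMI, 200 or more genes and at most 15% mitochondrial UMIs, and when its clonotype held 5 or more such cells in the pool. Clonotypes with the TRAV11-TRAJ18 chain of invariant natural killer T cells were left out, which removed 354 cells of every clonotype size. The rule found 1266 cells in 86 clonotypes, out of 56649 barcodes and 30203 clonotypes counted within pools. The members were chosen by clonotype size and by Cd4 and Cd8 UMIs, which are therefore given as a description only.

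The study sorted living CD3+ mCherry- T cells from the bone marrow of C57BL/6 mice, where mCherry reports the Runx1::Runx1t1 fusion of a leukemia model. The Runx1::Runx1t1 group was Runx1 Runx1t1/+; Mx1-Cre mice, and the control group was Runx1 Runx1t1/+ mice without Mx1-Cre, which the labels call wild type. Both groups carried the conditional allele and received Poly(I:C) at 5 mg/kg every other day for 4 injections, which induces interferon and through it the Mx1 promoter that drives Cre, and were sampled 4 weeks later. Mx1-Cre acts in blood cells of many lineages and in other interferon-responsive tissue. The mice of the 2 groups were sex-matched littermates. Each group had 2 pools of 2 mice, so a clonotype of a pool cannot be assigned to a mouse, and p-values measure the spread between pools. The age of the mice was not given in the sources used here.

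CD4 T cells recognise peptides on MHC class II molecules. Each cell joins V and J segments (with a D segment in TRB) into 1 TRA and 1 TRB chain, and bases lost and added at the joint make the CDR3 sequence nearly a fingerprint of the cell and its descendants. Expanded CD4 clones can be helper cells that make cytokines, Foxp3+ regulatory cells that restrain other T cells, or cytotoxic cells that carry granzymes and the transcription factor Eomes.

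Some receptors had the same CDR3 amino acids written in different nucleotides. The largest such set joined TRAV19/TRAJ57 to TRBV3/TRBJ1-2, held 6 nucleotide clonotypes with 138 Cd4-only cells, and used 4 TRA and 4 TRB versions of 1 protein sequence. The chains of its 3 members are shown first because they carry this finding, written 5′ to 3′ with capitals at the bases where versions of the set differ.
TRA, Runx1::Runx1t1 replicate 2, clonotype of 104 cells: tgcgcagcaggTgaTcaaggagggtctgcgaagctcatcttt
TRA, Runx1::Runx1t1 replicate 2, clonotype of 21 cells: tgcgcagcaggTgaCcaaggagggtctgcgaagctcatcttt
TRA, Runx1::Runx1t1 replicate 1, clonotype of 7 cells: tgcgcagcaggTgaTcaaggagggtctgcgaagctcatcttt
TRB, Runx1::Runx1t1 replicate 2, clonotype of 104 cells: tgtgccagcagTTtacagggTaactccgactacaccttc
TRB, Runx1::Runx1t1 replicate 2, clonotype of 21 cells: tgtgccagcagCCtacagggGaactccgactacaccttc
TRB, Runx1::Runx1t1 replicate 1, clonotype of 7 cells: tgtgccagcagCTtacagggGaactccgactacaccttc

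A second set with the same V segments and TRAJ57, but with TRBJ2-2, held 3 nucleotide clonotypes and 23 Cd4-only cells of both Runx1::Runx1t1 pools. A clonotype of each pool is shown because the same protein sequence was again written in different nucleotides, with the same use of capitals.
TRA, Runx1::Runx1t1 replicate 1, clonotype of 16 cells: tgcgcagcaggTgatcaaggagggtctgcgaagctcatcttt
TRA, Runx1::Runx1t1 replicate 2, clonotype of 3 cells: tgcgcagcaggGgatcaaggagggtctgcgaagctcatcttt
TRB, Runx1::Runx1t1 replicate 1, clonotype of 16 cells: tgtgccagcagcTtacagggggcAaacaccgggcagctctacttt
TRB, Runx1::Runx1t1 replicate 2, clonotype of 3 cells: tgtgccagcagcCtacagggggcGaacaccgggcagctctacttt

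Another receptor, TRAV12D-2/TRAJ57 with TRBV16/TRBJ1-5, was a member in both Runx1::Runx1t1 pools with CDR3s that differed by 1 residue in each chain. It held 49 cells in replicate 2 and 10 in replicate 1. The largest clonotype of each pool is printed after it, since its state is described further on. Here the capitals mark the bases between the longest start that matched the most common sequence of CDR3s with that V segment and the longest end that matched the J segment, that is, the joint.
TRAV12D-2/TRAJ57 TRA, Runx1::Runx1t1 replicate 2: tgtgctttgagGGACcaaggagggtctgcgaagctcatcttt
TRAV12D-2/TRAJ57 TRA, Runx1::Runx1t1 replicate 1: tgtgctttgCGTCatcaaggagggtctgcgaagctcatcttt
TRBV16/TRBJ1-5 TRB, Runx1::Runx1t1 replicate 2: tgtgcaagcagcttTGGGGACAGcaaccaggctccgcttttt
TRBV16/TRBJ1-5 TRB, Runx1::Runx1t1 replicate 1: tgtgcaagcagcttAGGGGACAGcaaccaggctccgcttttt
TRAV14-2/TRAJ9 TRA, largest in Runx1::Runx1t1 replicate 1: tgtgcagcaGtgggctacaaacttaccttc
TRBV10/TRBJ1-1 TRB, largest in Runx1::Runx1t1 replicate 1: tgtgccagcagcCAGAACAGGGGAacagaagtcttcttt
TRBV3/TRBJ1-2 TRB, largest in Runx1::Runx1t1 replicate 2: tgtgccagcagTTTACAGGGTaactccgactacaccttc
TRAV10/TRAJ31 TRA, largest in control replicate 1: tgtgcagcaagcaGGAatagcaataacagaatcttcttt
TRBV13-3/TRBJ2-5 TRB, largest in control replicate 1: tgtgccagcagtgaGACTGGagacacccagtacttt
TRAV10N/TRAJ12 TRA, largest in control replicate 2: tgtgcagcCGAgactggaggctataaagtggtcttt
TRBV12-2+TRBV13-2/TRBJ2-7 TRB, largest in control replicate 2: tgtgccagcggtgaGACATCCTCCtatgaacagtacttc
The TRA chain of the largest clonotype of replicate 2 is the first sequence above, and it had no base between its V and J matches.

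The 4 libraries held 90958101 to 102883449 UMIs and 13633 to 14664 barcodes, and 65.4% to 69.9% of the cells that passed the filters had a TRA and TRB pair. Cd4-only cells with a pair numbered 2087 and 1804 in the Runx1::Runx1t1 pools and 906 and 808 in the control pools. Members had a median of 5098.5, 5431, 4208 and 4422 UMIs per cell in Runx1::Runx1t1 replicates 1 and 2 and control replicates 1 and 2, and cells of 1-cell clonotypes had 5329, 5473.5, 4832 and 4770. Of 54256 barcode sequences, 1574 occurred in more than 1 library, 59 of them on members, and none of these carried the same clonotype in the other library.

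Expanded clonotypes made up 26.3% of the Cd4-only cells in Runx1::Runx1t1 replicate 1 (95% Wilson interval 24.4 to 28.2), 31.3% in replicate 2 (29.2 to 33.4), 12.7% in control replicate 1 (10.7 to 15.02) and 4.83% in control replicate 2 (3.55 to 6.53). The intervals cover counting error only. The pools of the 2 groups did not overlap, with means of 28.8% ± 3.54 (SD, n = 2) and 8.76% ± 5.56 (SD, n = 2), although the control pools differed from each other by more than their intervals. Deeper sampling of a pool lets more clonotypes reach 5 cells, and with 808 Cd4-only cells in every pool the expected shares were 19.1%, 26.3%, 11.5% and 4.83%. The Runx1::Runx1t1 pools held 37 and 31 member clonotypes and the control pools 13 and 5. Their largest clonotypes had 121, 104, 30 and 15 cells.

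**Figure D1:**
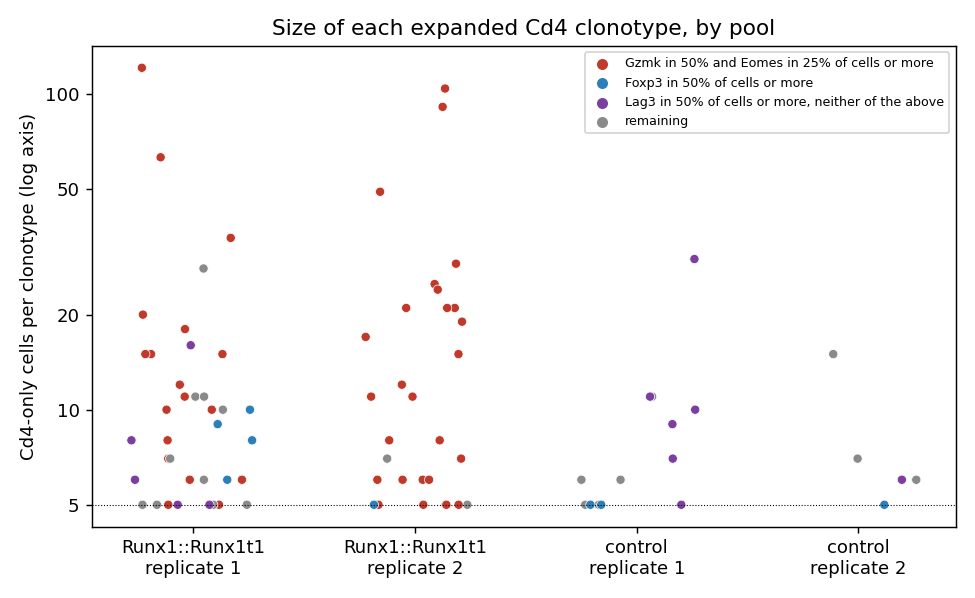
Number of Cd4-only cells (log axis) in each of the 86 expanded clonotypes, 1 point per clonotype, by pool, coloured by the state of the clonotype, with the dotted line at the limit of 5 cells. The clonotypes of more than 30 cells all lie in the Runx1::Runx1t1 pools and are of the Gzmk Eomes state, which no control clonotype has.

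At the limit of the rule, the 16 Runx1::Runx1t1 clonotypes of 5 cells had a Gzmk UMI in 56.3% of their cells, a Lag3 UMI in 40% and a Foxp3 UMI in 6.25%, and the 22 clonotypes of 4 cells just outside it had them in 40.9%, 27.3% and 7.95%. The 6 control clonotypes of 5 cells had them in 10%, 36.7% and 33.3%, and the 6 of 4 cells in 25%, 41.7% and 8.33%. Gzmk was thus more frequent in the Runx1::Runx1t1 than in the control clonotypes on both sides of the limit. These shares were summed over the pools of a group, and the control shares rest on 3 of 30 and 6 of 24 cells. They are a description, and no test was made.

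The lineage label was checked on genes the rule did not use. Zbtb7b, the transcription factor that commits thymocytes to the CD4 lineage, had a UMI in 13.3%, 17.6%, 19.1% and 10.3% of members and in 2.07%, 1.84%, 2.16% and 4.81% of cells of expanded Cd8 clonotypes in the same pools. Runx3, which is known for its role in CD8 and cytotoxic cells, had one in 61.7% and 73.6% of the Runx1::Runx1t1 members and in 16.5% and 30.8% of the control members. The expanded Cd8 cells of the Runx1::Runx1t1 pools had it in 63.8% and 74.4%, close to the members of those pools, and the non-T barcodes described further on in 37.6% and 46.7%. Counting every cell of the 86 clonotypes, 1266 of 1649 were Cd4-only, 234 had neither Cd4 nor Cd8 UMIs, 128 had both and 21 had Cd8 UMIs alone. The share with a Cd8 UMI was 9.92% and 9.34% in the Runx1::Runx1t1 pools and 4.29% and 5.45% in the control pools.

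Few receptors crossed between pools. Of 30195 distinct clonotypes, 8 were found in more than 1 pool, and 3 of these were members. TRAV4-2/TRAJ39 with TRBV12-2+TRBV13-2/TRBJ2-7 had 35 Cd4-only cells in Runx1::Runx1t1 replicate 1 and 1 in replicate 2. TRAV6N-6/TRAJ31 with TRBV3/TRBJ2-5 had 21 in Runx1::Runx1t1 replicate 2 and 1 in control replicate 1. TRAV21-DV12/TRAJ57 with TRBV14/TRBJ1-4 had 6 in Runx1::Runx1t1 replicate 1 and 1 in replicate 2. None of these single cells shared its barcode sequence with a member of the same clonotype, and carry-over of RNA between libraries was not tested.

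The receptors printed first were found mainly in the Runx1::Runx1t1 pools. TRAV19/TRAJ57/TRBV3 receptors, whatever their TRBJ segment and CDR3, accounted for 29 Cd4-only cells in 5 clonotypes of Runx1::Runx1t1 replicate 1, 150 cells in 6 clonotypes of replicate 2, 0 in control replicate 1 and 1 in control replicate 2. TRAV12D-2/TRAJ57/TRBV16 receptors accounted for 10, 50, 0 and 0. TRAJ57 was in 13 of 68 expanded clonotypes of the Runx1::Runx1t1 pools (19.1%, Wilson interval 11.5 to 30.01) and in 0 of 18 of the control pools (interval up to 17.6), beside 2.82% and 1.88% of their 1-cell clonotypes. TRBV3 was in 19.1% and 5.56% of the expanded clonotypes and in 8.94% and 9.58% of the 1-cell clonotypes. These segments were picked after their values were seen, the control pools held few members, and no test was made. Members that were 1 clone under 2 names, described further on, were counted under each name. A pair with TRAJ57 and TRBV3 was among them, and the intervals do not allow for this. CDR3 lengths were 40.7 ± 4.30 and 40.5 ± 3.67 bases (SD over 86 clonotypes) for TRA and TRB of members and 40.9 ± 4.47 and 41.6 ± 4.28 over the 3365 clonotypes of 1 cell.

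Cells with the first shared receptor mostly carried Gzmk and Lag3 whichever nucleotide version they had. Of the 104 cells of the largest version 101 had a Gzmk UMI, 97 a Lag3 UMI and 0 a Foxp3 UMI, and of the 21 cells of the next 21, 18 and 0. The 7 cells of the Runx1::Runx1t1 replicate 1 version had Gzmk in 4, Lag3 in 5 and Foxp3 in 0, and the single Cd4-only cell of another version in that pool had Foxp3 and Lag3 but no Gzmk. In the set with TRBJ2-2, the 16-cell clonotype mixed states. Foxp3 was found in 5 of its cells and Gzmk in 7, with both in 1 cell. The 3 cells of the replicate 2 version all had Gzmk and Lag3 and none had Foxp3. With another TRBJ segment and CDR3, the replicate 2 clonotype TRAV19/TRAJ57 with TRBV3/TRBJ2-5 (17 cells) had Gzmk in 58.8% of its cells, Lag3 in 5.88% and Tcf7 in 94.1%.

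**Figure D2:**
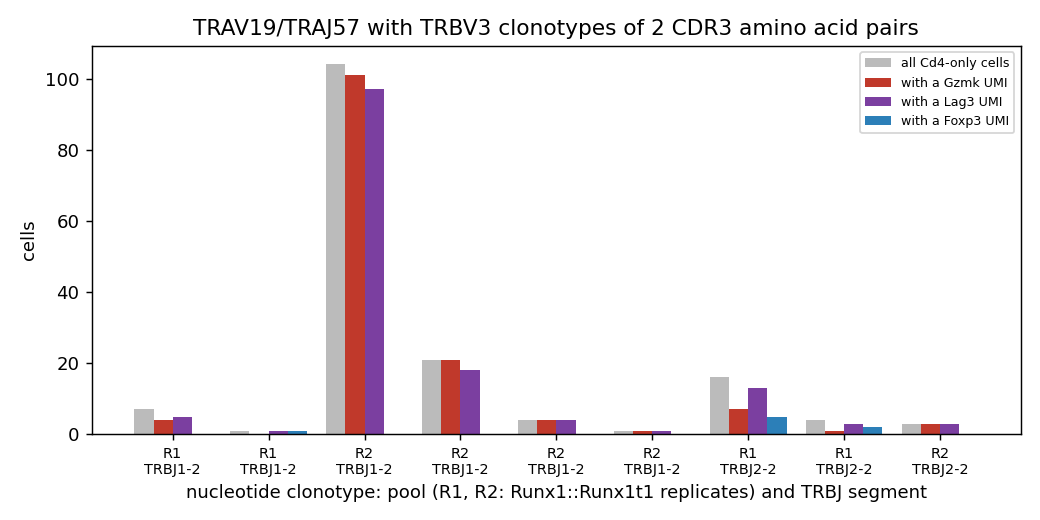
Cells in each nucleotide clonotype (bars, linear axis) of the 2 TRAV19/TRAJ57 with TRBV3 receptors that share their CDR3 amino acids, labelled by Runx1::Runx1t1 replicate (R1, R2) and TRBJ segment, with the cells that have a Gzmk, Lag3 or Foxp3 UMI. The 104-cell version stands above all others, and Foxp3 cells appear only in versions of replicate 1.

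Some members were 1 clone under 2 names. T cells can express 2 TRA or, less often, 2 TRB chains, and 7 pairs of members in the same pool shared 1 chain while their cells also held the partner's other chain. These 14 clonotypes had 235 cells, of which 206 held the chain of the partner, and joining them left 79 clonotypes. One pair put the 91-cell and 15-cell TRBV10/TRBJ2-5 clonotypes of Runx1::Runx1t1 replicate 2 together, and another the 15-cell and 7-cell clonotypes of control replicate 2. The names of these pairs were close in Lag3, found in 8.79% and 6.67% of the cells of the former and in 0% and 0% of the latter. Gzmk was in 94.5% and 100% of the cells of the former, but in 20% of 15 cells and 57.1% of 7 cells of the latter. In 1 pair of Runx1::Runx1t1 replicate 1 the names differed in Foxp3, found in 28.6% of 7 cells under 1 name and 75% of 8 cells under the other.

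Clonotypes were described by 4 states, with limits chosen after the values were seen. A Foxp3 clonotype had a Foxp3 UMI in 50% or more of its cells. A Gzmk Eomes clonotype had Gzmk, a granzyme, in 50% or more and Eomes in 25% or more. A Lag3 clonotype had Lag3, an inhibitory receptor that binds MHC class II, in 50% or more without meeting either of these. The remaining clonotypes met none. Because the states were cut from these genes, their difference in them is not a result.

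Gzmk Eomes clonotypes numbered 18 of 37 and 28 of 31 in the Runx1::Runx1t1 pools and 0 of 13 and 0 of 5 in the control pools. They held 69.7% and 97.0% of the member cells of the first. Lag3 clonotypes numbered 5, 0, 6 and 1 in Runx1::Runx1t1 replicates 1 and 2 and control replicates 1 and 2, Foxp3 clonotypes 4, 1, 2 and 1, and remaining clonotypes 10, 2, 5 and 3. The controls thus held 3 of the 4 states, on 18 clonotypes in all.

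Within the Gzmk Eomes state, clonotypes ran from Lag3-high to Tcf7-high. Over the 46 clonotypes the share of cells with a Lag3 UMI ran from 0% to 100% with a median of 42.0%, and the share with a Tcf7 UMI, a transcription factor of naive and memory T cells, from 0% to 100% with a median of 27.6%. Ccl5, a chemokine of effector cells, and Nkg7, a cytotoxic granule protein, were in 99.2% and 98.9% of their cells. Gzmb, a granzyme, varied more, from 0% to 80% with a median of 20%. Small clonotypes are included in these ranges, and with 5 cells a share of 0% or 100% rests on few counts.

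The largest clonotypes lay on both sides of this range. TRAV14-2/TRAJ9 with TRBV10/TRBJ1-1 of Runx1::Runx1t1 replicate 1 (121 cells, median 5197 UMIs) had Lag3 in 96.7% of its cells, Pdcd1 in 84.3%, Adgrg1 in 42.1%, Coch in 47.9%, Gzmb in 52.9% and Tcf7 in 2.48%. The 104-cell TRAV19/TRAJ57 clonotype of replicate 2 had Lag3 in 93.3%, Pdcd1 in 65.4%, Adgrg1 in 32.7%, Coch in 71.2% and Tcf7 in 3.85%. TRAV14D-1/TRAJ15 with TRBV10/TRBJ2-5 of replicate 2 (91 cells, median 4981 UMIs) had Gzmk in 94.5% and Eomes in 81.3%, but Lag3 in 8.79%, Pdcd1 in 18.7%, Adgrg1 in 1.10%, Coch in 0% and Tcf7 in 62.6%. Its depth was close to that of the 121-cell clonotype. Pdcd1 encodes the inhibitory receptor PD-1, Adgrg1 an adhesion receptor found on cytotoxic lymphocytes, Gzmb a granzyme, and Coch a secreted matrix protein.

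The next clonotypes lay between these. TRAV14D-3-DV8/TRAJ57 with TRBV12-2+TRBV13-2/TRBJ2-7 of replicate 1 (63 cells) had Lag3 in 44.4% and Tcf7 in 20.6%. TRAV12D-2/TRAJ57 with TRBV16/TRBJ1-5 of replicate 2 (49 cells) had Lag3 in 75.5% and Ifng, the cytokine interferon gamma, in 83.7%. Its near-identical partner in replicate 1 (10 cells) had Lag3 in 70% and Ifng in 90%. The 2 clonotypes of different pools were thus close in these genes.

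Of the other large clonotypes, TRAV4-2/TRAJ39 of replicate 1 (35 cells) had Lag3 in 85.7% and Il10, a suppressive cytokine, in 60%. TRAV12D-2/TRAJ40 with TRBV3/TRBJ2-7 of replicate 2 (29 cells) had Lag3 in 17.2% and Tcf7 in 75.9%. TRAV14-1/TRAJ27 with TRBV16/TRBJ1-3 of replicate 2 (25 cells) had Lag3 in 44% and Tcf7 in 48%. The 10 largest clonotypes were completed by 2 that lacked Eomes, described with the other states.

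**Figure D3:**
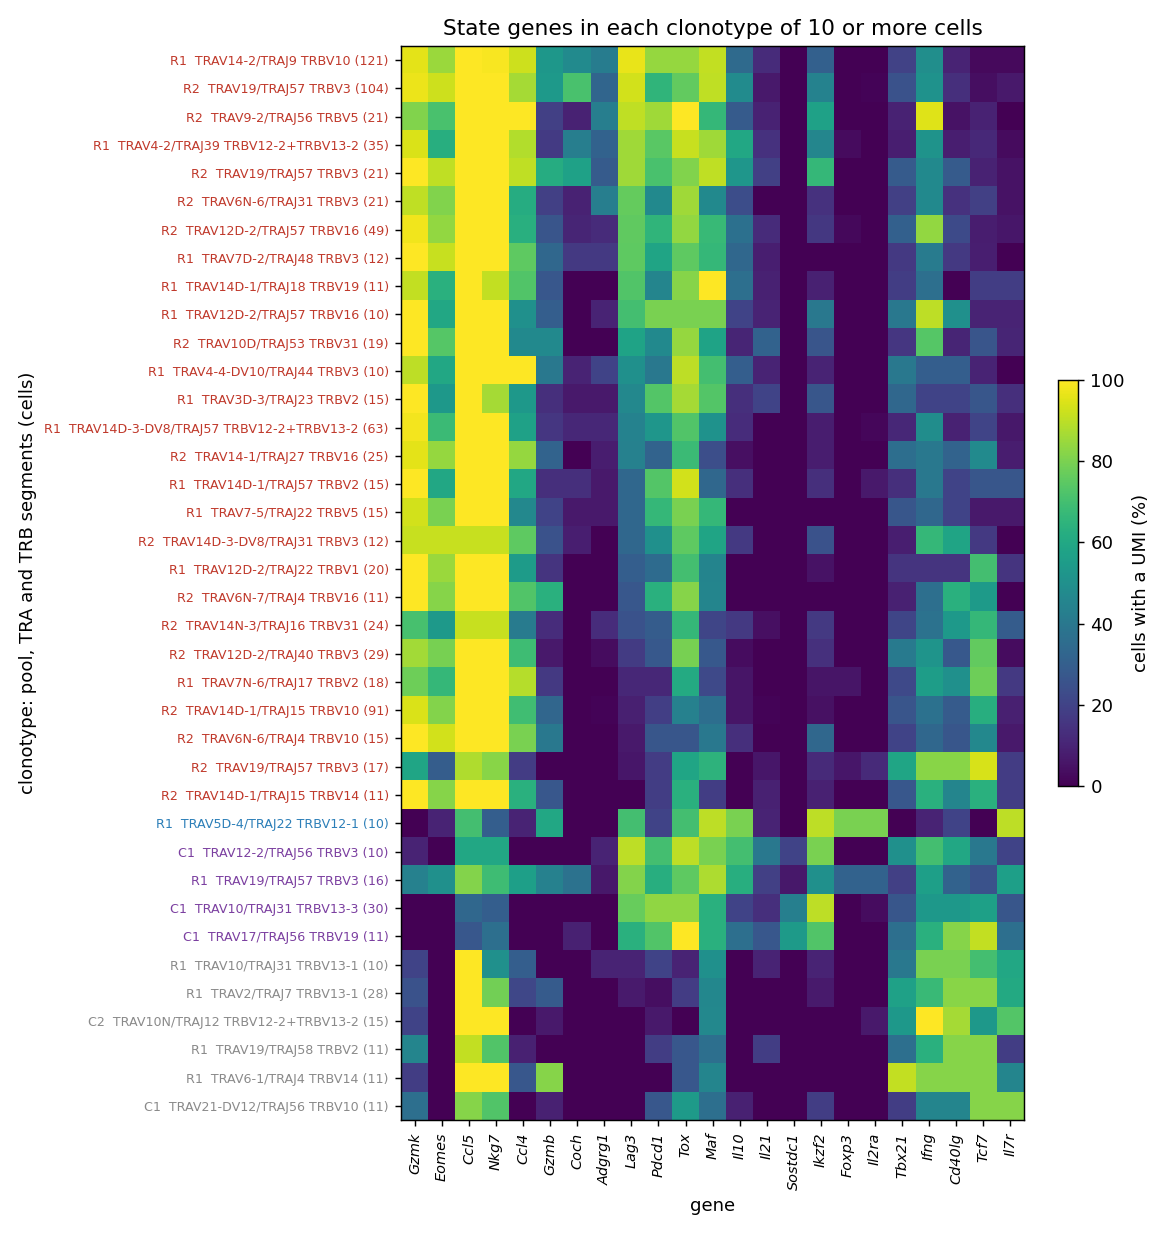
Share of cells with a UMI (colour, 0 to 100%) of 23 genes in the 38 clonotypes of 10 or more cells, with row labels giving the pool (R1, R2 for Runx1::Runx1t1 and C1, C2 for control replicates), TRA and TRB segments and cells, coloured by state and sorted by state and Lag3. Gzmk Eomes rows are near 100% for Ccl5 and Nkg7 throughout while Lag3, Pdcd1 and Tcf7 change from top to bottom.

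**Figure D4:**
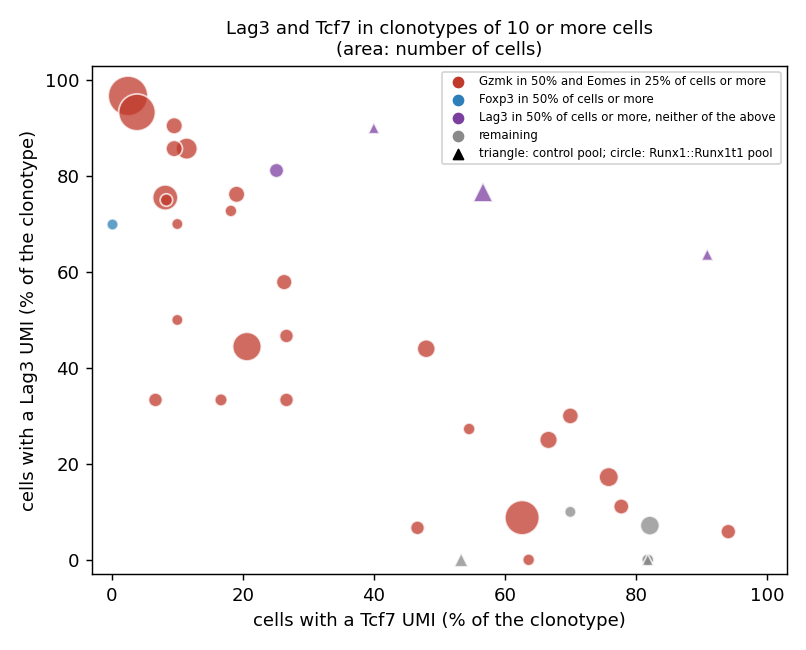
Share of cells with a Lag3 UMI against the share with a Tcf7 UMI (%) in the 38 clonotypes of 10 or more cells, with area for cells, colour for state and triangles for control pools. Gzmk Eomes clonotypes run from the upper left to the lower right, and the 3 control Lag3 clonotypes lie above that line with Tcf7 in 40% to 90.9% of their cells.

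Lag3 clonotypes of the control pools had few cells with Gzmk. TRAV10/TRAJ31 with TRBV13-3/TRBJ2-5 of control replicate 1 (30 cells) had Lag3 in 76.7%, Pdcd1 in 83.3%, Ikzf2 in 90%, Sostdc1 in 43.3% and Tcf7 in 56.7% of its cells, and Gzmk, Eomes and Foxp3 in none, which at 30 cells allows up to 10%. Ikzf2 encodes Helios, a factor of regulatory and some chronically stimulated T cells, and Sostdc1 a secreted antagonist found in follicular T cells. Over the 6 Lag3 clonotypes of control replicate 1, Ikzf2 was in 80.6% of cells, Sostdc1 in 36.1%, Il21 in 18.1% and Foxp3 in 0%. The 5 Lag3 clonotypes of Runx1::Runx1t1 replicate 1 had Ikzf2 in 47.5% of cells, Sostdc1 in 10%, Il21 in 30%, Foxp3 in 12.5% and Gzmk in 17.5%. Sostdc1 was in 0% of the cells of all Gzmk Eomes clonotypes.

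Foxp3 clonotypes were small, with 5 to 10 cells each and 53 in all. TRAV9-1/TRAJ31 with TRBV5/TRBJ2-4 of Runx1::Runx1t1 replicate 1 (9 cells) had Foxp3 in 88.9% and Il2ra, the high-affinity interleukin-2 receptor chain, in 77.8%. TRAV5D-4/TRAJ22 with TRBV12-1/TRBJ2-3 of the same pool (10 cells) had them in 80% each, with Il10 in 80%. Over the 8 clonotypes Ikzf2 was in 83.0% of cells and Gzmk in 3.77%.

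Remaining clonotypes carried helper genes. TRAV2/TRAJ7 with TRBV13-1/TRBJ2-7 of Runx1::Runx1t1 replicate 1 (28 cells) had Cd40lg, the helper signal to B cells and myeloid cells, in 82.1%, Tcf7 in 82.1%, Tbx21, the Th1 factor, in 57.1%, Lag3 in 7.14% and Eomes in 0%. TRAV10N/TRAJ12 with TRBV12-2+TRBV13-2/TRBJ2-7, the largest of control replicate 2 (15 cells), had Ifng in 100%, Cd40lg in 86.7%, Tbx21 in 53.3% and Lag3 in 0%. Over the 20 remaining clonotypes Cd40lg was in 70.5% of cells and Il7r, the receptor of the survival cytokine interleukin-7, in 62.0%, against 22.9% and 8.18% in the Gzmk Eomes clonotypes. The remaining clonotypes also had Ccl5 in 88.6% of their cells, Nkg7 in 71.1% and Gzmk in 24.7%. Ccl5 and Nkg7 were thus not particular to the Gzmk Eomes state. All 4 pools had such clonotypes.

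The highest summed level of each gene list also fell on different clonotypes. In CPM, the UMIs of a gene or list scaled to a common total of UMIs, the 14 cytotoxic genes reached 75257 in the 121-cell clonotype, with a median of 17716 over the 86 clonotypes. The 13 regulatory genes reached 10596 in TRAV9-1/TRAJ31 with TRBV5/TRBJ2-4 (median 1447), and the 12 follicular helper genes 2968 in TRAV17/TRAJ56 with TRBV19/TRBJ2-5 of control replicate 1 (11 cells, median 704). The 12 Th1 genes reached 4553 and the 13 helper memory genes 25148 in TRAV14D-1/TRAJ6 with TRBV15/TRBJ2-2 of control replicate 2 (6 cells, medians 2349 and 8822). These leaders come from 5 to 121 cells, and the small ones rest on few UMIs.

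The lists of other activity had their own leaders. The 12 proliferation genes were highest in TRAV10D/TRAJ53 with TRBV31/TRBJ2-7 of Runx1::Runx1t1 replicate 2 (19 cells, 2283, median 227). The 11 genes of inhibitory receptors and Tox (6636, median 2223) and the 5 study genes (3447, median 326) were highest in the 7-cell version of the first shared receptor. The 10 naive genes were highest in TRAV4D-4/TRAJ22 with TRBV23/TRBJ2-4 of control replicate 1 (6 cells, 3562, median 813), and the 10 type 17 genes in TRAV19/TRAJ58 with TRBV2/TRBJ1-2 of Runx1::Runx1t1 replicate 1 (11 cells, 501, median 76.2). The proliferation leader was a Gzmk Eomes clonotype with a Mki67 UMI in 31.6% of its cells.

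Expanded clonotypes were next compared with the 3365 Cd4 clonotypes of 1 cell, which show what CD4 cells with a receptor seen once in the same pools express. A clonotype sampled once may still have had more cells in the mouse. Lag3, Gzmk, Pdcd1, Tigit and Ifng were higher in expanded clonotypes of all 4 pools, and genes of naive cells that circulate, such as Ccr7 and Klf2, were lower in all 4. UMIs were summed per pool and class, and edgeR's quasi-likelihood test was applied with a term for each pool and Benjamini-Hochberg adjustment. Of 9916 genes 713 passed at an adjusted p of 0.05 (7.19%), 263 higher (2.65%) and 450 lower (4.54%), with a median log2 fold change of -0.01 over all genes. In such sums a larger share of cells with a gene and more of its RNA per cell cannot be told apart.

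The shares of cells were read against barcodes of other cells. These had no TCR contig, no Cd3 UMI and 5 or more UMIs of progenitor, myeloid, B cell and erythroid markers, with medians of 9677, 9741, 11288 and 13505 UMIs. Gzmk had a UMI in 71.7%, 89.7%, 7.83% and 23.1% of members of Runx1::Runx1t1 replicates 1 and 2 and control replicates 1 and 2, in 7.88%, 14.5%, 4.68% and 8.09% of cells of 1-cell clonotypes, and in 0.784%, 3.02%, 0% and 0.262% of the non-T barcodes. After each cell was thinned to 2000 UMIs, the members had Gzmk in 59.5%, 71.6%, 5.41% and 15.8% and the 1-cell clonotypes in 4.78%, 9.55%, 2.97% and 4.93%. With each clonotype counted once, the mean shares were 53.3%, 83.2%, 9.04% and 22.1%. Gzmk was thus more frequent in members of each pool, and the Runx1::Runx1t1 pools stood apart from the controls.

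Inhibitory receptors and Tox, a factor of chronically stimulated T cells, rose in part: 7 of 11 tested genes were higher and none lower, with a median log2 fold change of 1.15. Lag3 (chromosome 6, 124904361 to 124911705, GRCm38) was at 565, 381, 339 and 66.5 CPM in expanded clonotypes and 33.4, 48.4, 37.7 and 12.8 in 1-cell clonotypes, a log2 fold change of 3.22 ± 0.24 (SE, edgeR adjusted p = 0.000937). Every pool's expanded level was above the highest 1-cell level. Pdcd1 was at 233, 148, 239 and 87.0 against 29.5, 36.2, 44.5 and 27.1 (2.29 ± 0.20, edgeR adjusted p = 0.00146). Tigit, another inhibitory receptor, was at 915, 653, 655 and 358 against 198, 217, 167 and 145 (1.71 ± 0.14). Nr4a2, Tox, Havcr2 and Entpd1 also passed, and control replicate 2 was the lowest expanded pool for Lag3, Pdcd1 and Tigit. Lag3 had UMIs in 34.9%, 37.7%, 2.83% and 21.3% of the non-T barcodes, so a Lag3 share is not specific to T cells, but Pdcd1 and Tigit were in at most 1.51% of them.

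Cytotoxic genes had 4 of 13 higher (Gzmk, Ccl5, Cst7, Ctsw), none lower and a median of 1.69. Gzmk (chromosome 13, 113171608 to 113225908) was at 686, 831, 40.2 and 66.5 CPM against 41.1, 90.7, 14.2 and 27.7 (2.85 ± 0.44, edgeR adjusted p = 0.00919). Ccl5 was at 26886, 23639, 2237 and 5476.5 against 1951, 2433, 1759 and 1620 (2.25 ± 0.54, edgeR adjusted p = 0.0468), and lost its call without Runx1::Runx1t1 replicate 1 (1.71), replicate 2 (1.86) or control replicate 2 (2.49). Coch, not on a list, had the largest log2 fold change among the named rises: 130, 103.2, 5.75 and 5.12 against 0.716, 1.71, 0.296 and 0 (6.42 ± 0.34, edgeR adjusted p = 0.000374), on 3 and 1 UMIs in the expanded clonotypes of the control pools. Mt3, a metallothionein, was at 19.7, 19.0, 15.3 and 25.6 against 2.43, 2.39, 0.889 and 2.71 (3.08 ± 0.28), close to equal in both groups. Serpina3f, Cdkn2a, Adrb1, Ier3 and Map2 were the other genes with the largest rises.

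Helper lists moved in part. Of 12 Th1 genes 5 were higher, among them Ifng, Tbx21, Cxcr6 and Bhlhe40, with a median of 0.29. Ifng was at 301, 269, 285 and 532 CPM against 111, 95.7, 121 and 102 (1.53 ± 0.17, edgeR adjusted p = 0.00345), with the highest level in control replicate 2. Of 10 follicular helper genes 4 were higher (Il21, Cxcr5, Tox2, Sh2d1a) with a median of 0.72. Il21, a cytokine of follicular helper cells, was at 28.4, 13.7, 40.2 and 10.2 against 2.86, 5.12, 5.63 and 0.543 (2.48 ± 0.38), and lost its call without Runx1::Runx1t1 replicate 1 (2.14). Of 13 helper memory genes S100a6 and S100a11 were higher, and of 11 genes induced by TCR signals only Nfatc1 passed.

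Naive genes fell as a list: 9 of 10 were lower, Tcf7 being the exception, with a median of -2.62. Ccr7, a chemokine receptor for entry into lymph nodes, was at 24.4, 12.0, 69.0 and 20.5 CPM against 352, 505, 291 and 277 (-3.95 ± 0.46, edgeR adjusted p = 0.00367). Klf2, which keeps T cells circulating, was at 242, 326, 571 and 358 against 1178, 1457, 1350 and 1094 (-1.93 ± 0.16). Ly6c1, a surface antigen of some memory and naive cells, was at 0.669, 1.46, 0 and 0 against 60.1, 88.2, 80.6 and 85.8 (-6.31 ± 0.27, edgeR adjusted p = 0.000122). Pdlim4, Ifngr2, St8sia6, Aqp3, Cnksr3 and Mical3 were among the other largest falls.

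Type 17 and NK receptor genes were lower too, and regulatory genes moved in part. Foxp3 had a UMI in 6.75%, 1.42%, 6.09% and 7.69% of members and in 29.6%, 27.0%, 23.3% and 24.1% of 1-cell clonotypes, and its level was 56.9, 7.89, 46.0 and 35.8 CPM against 184, 198, 124 and 128 (-2.55 ± 0.49, edgeR adjusted p = 0.0210). The call was lost without Runx1::Runx1t1 replicate 1 (-3.05) or control replicate 2 (-2.62). Of 13 regulatory genes Lrrc32, Gpr83, Itgae and Foxp3 were lower and Il10 higher (1.63 ± 0.34), with a median of -0.61. The summed regulatory level was 2438, 1389, 3264 and 1146 CPM against 2357, 2478, 1908 and 1601, higher in 2 of 4 pools. All 5 tested type 17 genes were lower (median -2.01), among them Il17a, at 0.334, 0.584, 0 and 0 against 22.3, 17.6, 25.2 and 6.79. NK receptor genes had 8 of 9 lower (median -2.35), of the invariant NKT list Plac8 and Klrb1c were lower among 6, and of 6 type 2 genes only Il1rl1 was. Of 11 marrow residence and homing genes Itga4 and Cxcr6 were higher and S1pr1, Klf2, S1pr4 and Itgae lower.

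No gene passed in 2 lists. By edgeR and by DESeq2, 0 of 12 interferon-stimulated and 0 of 12 proliferation genes were called, with 5 and 0 at an unadjusted p under 0.05. Mki67, a marker of dividing cells, had a UMI in 8.76%, 12.2%, 6.96% and 2.56% of members and 7.53%, 8.12%, 5.49% and 4.58% of 1-cell clonotypes, higher in 3 of 4 pools.

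The genes that the study reported for tumor-reactive against bystander Cd8 T cells were given in either case. Expanded against 1-cell Cd4 clonotypes are another comparison in other cells, so passing or failing here does not test that report. Pdcd1, Lag3, Osgin1 and Chn2 passed, with Osgin1 at 50.5, 45.6, 61.3 and 15.4 CPM against 17.6, 21.1, 18.1 and 16.0 and Chn2 at 59.5, 31.6, 34.5 and 61.4 against 25.9, 19.95, 21.6 and 18.7. Osgin1 lost its call without Runx1::Runx1t1 replicate 1 (1.10). Adgrg1 (chromosome 8, 94974751 to 95014217) did not pass: it was at 42.5, 33.9, 1.92 and 0 against 6.59, 8.53, 1.78 and 16.6 (1.73 ± 0.52, edgeR adjusted p = 0.0975), higher in 3 of 4 pools. An Adgrg1 UMI was in 15.1%, 13.5%, 0.870% and 0% of members and in 72.9%, 77.4%, 16.6% and 74.0% of the non-T barcodes, so RNA from other cells could give such counts and its part was not tested. The 0 of 39 cells of control replicate 2 allows a share of up to 7.69%.

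**Figure D5:**
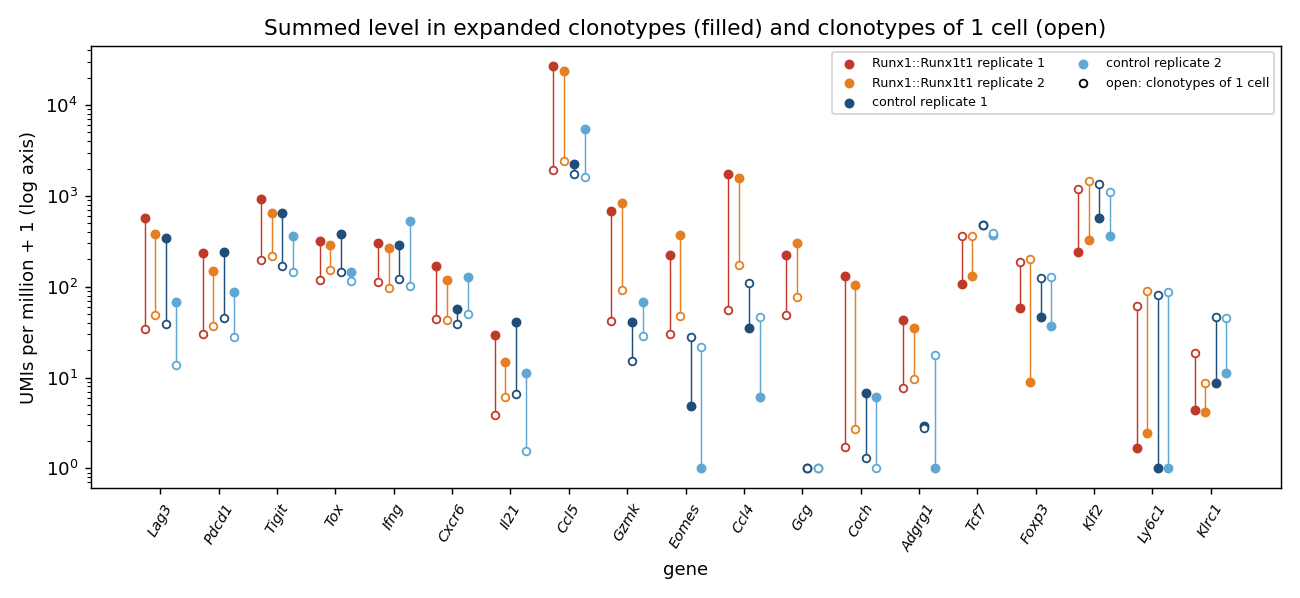
Summed level (CPM + 1, log axis) of 19 genes in expanded clonotypes (filled) and 1-cell clonotypes (open), with 1 pair of points per pool joined by a line and colours for the 4 pools. Lag3, Pdcd1 and Tigit rise in every pool, Klf2 and Ly6c1 fall in every pool, and Gzmk, Eomes, Ccl4 and Gcg separate the Runx1::Runx1t1 pools from the controls.

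The number of calls depended on the pools and on naive cells. Without Runx1::Runx1t1 replicate 1 it was 146 and without replicate 2 it was 296, of which 137 and 264 were among the 713. Of the 70 genes named here as called, 30 passed with any single pool left out, among them Lag3, Pdcd1, Tigit, Gzmk, Coch, Ifng, Ccr7, Klf2 and Ly6c1. Without Runx1::Runx1t1 replicate 1 the inhibitory list had 4 calls, the cytotoxic list 1 (Gzmk), the follicular helper list 0 and the naive list 8, and Tox (0.86) and Il10 (1.41) were among those lost. Without cells that had a UMI of either of 2 naive genes, 170 of 9155 genes passed (1.86%), 57 higher (0.623%) and 113 lower (1.23%), 160 of them shared, and Gzmk, Lag3, Pdcd1, Tigit and Ifng were still among the calls while Il10, Il21 and Tox were not. With library size alone in place of TMM scaling the 722 calls split into 369 higher and 353 lower. Of other-cell markers, 0 of 1 B cell, 0 of 2 erythroid and 0 of 3 progenitor genes tested were called by edgeR, with 1, 0 and 1 at an unadjusted p under 0.05 and none by DESeq2. Of 3 myeloid genes Lyz2 and Mpo were lower in members, and the summed level of 8 myeloid genes was 9.36 to 117 CPM in expanded and 31.7 to 230 in 1-cell clonotypes. Its part in these results was not tested.

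Runx1::Runx1t1 and control pools were then compared within the expanded clonotypes, which asks how the clones of mice with the fusion differ from those of mice without it. Cytotoxic genes were higher with the fusion and Tcf7 and Il18r1, an interleukin-18 receptor chain, were lower. By edgeR 16 of 8918 genes passed (0.179%), 13 higher (0.146%) and 3 lower (0.0336%), with 1068 at an unadjusted p under 0.05. DESeq2 called 73, 35 higher and 38 lower. The control pools contributed 115 and 39 cells.

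Of 13 cytotoxic genes 5 were higher and none lower, with a median of 3.42 against -0.01 over all genes. Gzmk, with the levels given above, differed by 4.01 ± 0.27 (SE, edgeR adjusted p = 0.00529). Ccl3, a chemokine of activated effector cells, was at 615 and 589 CPM in the Runx1::Runx1t1 pools and 5.75 and 5.12 in the control pools, on 3855 and 4 UMIs, a ratio of 108 (95% exact interval 42.1 to 396, counting error only, edgeR adjusted p = 0.000432). Ccl4, a related chemokine, was at 1754 and 1559 against 34.5 and 5.12 (6.1 ± 0.37). Eomes was at 225 and 369 against 3.83 and 0, with 2 UMIs in the controls (ratio 108, 29.9 to 894), and Prf1, perforin, at 46.2 and 59.0 against 1.92 and 0, with 1 UMI (ratio 38.0, 6.78 to 1507).

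Gcg, the gene of the glucagon precursor (chromosome 2, 62474530 to 62483650), was at 221 and 304 CPM in the Runx1::Runx1t1 pools on 1699 UMIs and at 0 in both control pools, at least 63.4-fold higher against a floor of 3 counts over the control group. It was in 71.4% of the cells of the 21-cell TRAV9-2/TRAJ56 clonotype of replicate 2, in 26.4% and 27.9% of the 2 largest clonotypes and in 0% of the 91-cell clonotype, which allows up to 3.3%. It was also at 47.7 and 75.2 against 0 and 0 in 1-cell clonotypes, at least 142-fold higher. In the expanded Cd8 clonotypes 0.0984% and 0.675% of cells had it in the Runx1::Runx1t1 pools, and in non-T barcodes 0% and 0.503%.

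Of the 3 genes that were lower, 2 were known protein-coding genes and the other, Gm42418, is a predicted gene. Tcf7 was at 106 and 129 CPM in the Runx1::Runx1t1 pools and 473 and 369 in the control pools (-1.79 ± 0.19, edgeR adjusted p = 0.0349). Il18r1 was at 7.36 and 6.14 against 63.2 and 40.9 (-2.97 ± 0.33, edgeR adjusted p = 0.0349). The groups did not overlap for either gene.

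Of the study genes none passed in this comparison. Adgrg1 was at 42.5 and 33.9 against 1.92 and 0, with 1 UMI in the controls (ratio 27.2, 4.83 to 1078, edgeR adjusted p = 0.0627). Lag3 differed by 1.15 ± 0.52 (edgeR adjusted p = 0.442) and Pdcd1 by 0.17 ± 0.39 (edgeR adjusted p = 0.917), with control replicate 1 above both Runx1::Runx1t1 pools for Pdcd1. Of the 9 genes named as called, Gzmk, Ccl3, Ccl4 and Gcg passed with any single pool left out. Eomes and Prf1 lost their calls without control replicate 1, which left a control pool at 0 and hence no fold, and Prf1 also without Runx1::Runx1t1 replicate 2. Tcf7 lost its call without Runx1::Runx1t1 replicate 1 (-1.66) or replicate 2 (-1.93). Il18r1 lost it without Runx1::Runx1t1 replicate 1 (-3.07), replicate 2 (-2.81) or control replicate 1 (-2.54). The count of calls was 131 without control replicate 2 and 38 without control replicate 1.

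The 1-cell clonotypes were compared between groups in the same way. Of 10523 genes 96 passed by edgeR (0.912%), 63 higher (0.599%) and 33 lower (0.314%) in the Runx1::Runx1t1 pools, and none of 14 cytotoxic genes was among them. Of these 14, 7 had an unadjusted p under 0.05 by edgeR, beside 1209 of all 10523 genes, and DESeq2 called 1. Their median log2 fold change was 0.33 against -0.005 over all genes, so a smaller cytotoxic difference in 1-cell clonotypes was not excluded. Of 13 regulatory genes 5 were higher (Il10, Tnfrsf4, Tnfrsf18, Lrrc32, Foxp3), with Foxp3 at 184 and 198 CPM against 124 and 128 (0.63 ± 0.09, edgeR adjusted p = 0.0118). The progenitor and mast cell gene Cpa3 was at 104 and 89.2 against 0.296 and 0.814, and 4 progenitor genes summed to 118 and 105 against 2.37 and 18.7 there, beside 29.4 and 63.4 against 5.75 and 5.12 in the expanded clonotypes. Of 7 myeloid genes tested S100a8, S100a9 and Camp were lower and Mpo higher, of 3 erythroid genes Hbb-bs was lower, and of 11 NK receptor genes Klrd1, Klrk1 and Klrc1 were lower. The 8 myeloid genes summed to 125 and 31.7 CPM against 230 and 41.8, and the 12 NK receptor genes to 304 and 172 against 564 and 439.5. The part of RNA from other cells in the group differences was not tested. Without Runx1::Runx1t1 replicate 1, replicate 2 or control replicate 2 the count was 346, 246 and 172.

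Whether expansion went with other genes in the 2 groups was tested by the interaction of class and group. Of 10554 genes 19 passed (0.180%), 9 with a larger (0.0853%) and 10 with a smaller (0.0948%) expanded-to-1-cell difference in the Runx1::Runx1t1 pools. Eomes rose from 28.9 and 46.2 CPM in 1-cell clonotypes to 225 and 369 in expanded ones in the Runx1::Runx1t1 pools, while it was at 27.0 and 20.6 and at 3.83 and 0 in the control pools. Of 14 cytotoxic genes Eomes, Nkg7, Ccl4 and Gzmb passed, and of the study genes none did, with Lag3 at 0.61 ± 0.40 (edgeR adjusted p = 0.689). No gene passed once cells with a UMI of either of these naive genes were left out, so these calls were not independent of which cells were compared.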

How the data were processed

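Single-cell 5′ RNA and TCR libraries of sorted bone marrow T cells were analysed for 2 Runx1::Runx1t1 and 2 control pools. The authors deposited raw UMI counts per gene and called barcode, made with Cell Ranger 6.1.2 on GRCm38 and not normalized, and contig tables with UMI counts per TCR chain, in which every TRA or TRB contig was productive, full length and of high confidence.

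Barcodes with 200 or more genes and at most 15% mitochondrial UMIs were kept, as in the study's methods. The study also removed doublets with Scrublet, but the deposited tables still held barcodes that its filters drop. Here no doublets were removed: Scrublet's own threshold marked 0, 573, 0 and 1 barcodes and was not used, and leaving out the 5% highest scores was an alternative. Groups followed the labels. The members, gene lists and states were chosen with earlier results of these data known. Counts were summed per pool and class and tested with edgeR 4.0.16 (quasi-likelihood, TMM scaling, Benjamini-Hochberg adjustment, R 4.3.3) for expanded against 1-cell clonotypes within pools, between groups in each class, and for their interaction. DESeq2 1.42.0 was an alternative. The scripts were tested on simulated data with 100 genes changed by a log2 of 1 and 100 by a log2 of 2, drawn from genes with higher counts. Of those changed by 1, 73 were recovered for expanded against 1-cell clonotypes and 27 between groups in expanded clonotypes. Between groups in 1-cell clonotypes 78 were recovered, and for the interaction 16. Of those changed by 2, 98, 83, 98 and 70 were recovered in the same order. False calls over all genes of each run numbered 11, 13, 19 and 18. A gene that did not pass between groups in expanded clonotypes or in the interaction may thus still differ. Depth and counts per pool are given with the results, and Wilson intervals cover counting error only. For shares across depths, cells were thinned to 2000 UMIs.

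Genes were named when they belonged to a list and passed, or were among the 10 largest rises or falls (5 between groups) past an adjusted p of 0.05, with the same sign in every pool or no overlap between groups and 50 or more UMIs, other than receptor, ribosomal, mitochondrial and predicted genes. Clonotypes were named when they were among the 10 largest, the largest of a pool, found in 2 pools or the highest for a list. Pdcd1, Adgrg1, Lag3, Osgin1 and Chn2 were named in any case. Sequences are from the deposited contigs, and coordinates from GENCODE M21, which held 32158 of the 32285 gene IDs. Other settings were no filter on low counts, library-size scaling, the replicate number as a block, and leaving out each pool. Some named genes are not reported here.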

Additional observations from a re-analysis of the deposited data

Results flagged for a closer look

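The expanded-to-1-cell difference of 14 named genes differed between the groups by the edgeR interaction test with Benjamini-Hochberg adjustment, over 2 pools per group. Values are differences of log2 fold changes, positive where the difference was larger in the Runx1::Runx1t1 pools. The cytotoxic genes among them were Eomes (6.21, adjusted p = 0.0044), Ccl4 (5.94), Gzmb (3.54) and Nkg7 (2.48). Nrarp, an inhibitor of Notch signalling, was at 3.50 and Tm6sf1 at 3.325. Those with a smaller difference were Tcf7 (-1.52), Il18r1 (-2.72), Itgb1, an integrin chain (-1.43), Nr4a1, which TCR signals induce (-1.35), Nrp1, a receptor found on thymic regulatory cells (-2.17), Nt5e, the ectoenzyme CD73 (-3.20), Penk, the enkephalin precursor (-2.65), and Matk, a kinase (-2.73). Eomes, Gzmb, Itgb1, Nkg7, Nr4a1, Penk and Tcf7 passed with any single pool left out, and the other 7 lost their calls without control replicate 1. Groups of 2 pools were too small for a test of single outlying pools.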

How the results depend on the processing

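Between expanded and 1-cell clonotypes (713 calls) the count was 1076 with no filter on low counts, 170 without cells that had a UMI of either of 2 naive genes, and 146 to 1010 with 1 pool left out. Between groups in expanded clonotypes (16 calls) the count was 8 with library-size scaling, 30 without the largest clonotype of each pool, 73 by DESeq2, 578 with no filter and 12 to 131 with 1 pool left out. It was 40 with clonotypes joined through second chains. In 1-cell clonotypes (96 calls) it was 473 with no filter, 38 without these cells and 89 to 346 with 1 pool left out. The interaction (19 calls) was the least stable, with 0 calls without these cells (807 genes at an unadjusted p under 0.05), 1 each with library-size scaling, without barcodes with 2 TRB contigs, and with 1-cell clonotypes that may have other cells, 5 without the highest Scrublet scores, 7 with clonotypes of 10 or more cells, 46 with at most 5 cells per clonotype, 58 by DESeq2 and 58 without the largest clonotypes, 340 with no filter, and 55 to 286 with 1 pool left out.

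The difference in the share of expanded cells fell from 20.001 to 14.5 percentage points with equal numbers of Cd4-only cells. The joining and the equal numbers were chosen after seeing the data. The cause of these changes was not tested, other than that no filter tests more genes. With the replicate number as a block, 93 genes were called in expanded and 434 in 1-cell clonotypes. The numbers only name the pools: deviations of same-numbered pools correlated at 0.12 and 0.17 over 2 pairs. A pool left alone in its group was assumed to vary like the other group. No result reversed direction in any alternative run. The control pools held 115 and 39 member cells, which limits every comparison between groups.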
